A study of Rattus norvegicus with 9 samples.

Results

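The Nduf genes encode subunits and assembly factors of respiratory complex I, the mitochondrial enzyme that passes electrons from NADH to ubiquinone. They were taken as every gene of the deposited expression table whose symbol starts with Nduf, which gave 44 of 18964 genes. All 44 passed the filter on low counts that left 14643 genes for testing. Of the 44, 34 encode structural subunits and 7 encode Ndufaf assembly factors. The other 3 are Ndufa4 and its paralog Ndufa4l2, which carry the name but are not counted as complex I subunits today, and Ndufa10l1, a gene with 1 annotated transcript that resembles Ndufa10.

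The RNA came from gastric lymphatic vessels of wild-type male Sprague-Dawley rats, in 3 groups of 3 poly(A) libraries. Model rats underwent water-immersion stress, a standard way to induce gastric ulcers, in a pool filled to 15 cm for 4 h with the water near 22 °C. They were gavaged 30 min later with vehicle, which the protocol names as distilled water and the sample labels as saline. BXD rats had the same immersion and then received Banxia Xiexin decoction, a multi-herb preparation, by gavage at 10 ml/kg. Control rats were not immersed and received water by gavage. All groups had been fasted for 12 h. The protocol gives 6 rats per group, but the labels do not tie a library to a rat, so a p-value covers only the variation among libraries. A further group treated with omeprazole is not analysed here. The estimated counts summed to between 12313800 and 13455700 per library. Lymphatic endothelial markers were detected in every library, with a summed level of 805 to 1760 CPM (counts relative to the scaled library size), and gastric mucosa markers summed to 0.501 to 3.27 CPM.

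Complex I is built from modules that are assembled separately and then joined. The N module at the tip of the matrix arm oxidises NADH, the Q module below it reduces ubiquinone, and the proximal and distal parts of the membrane arm hold the proton pumps. Assembly factors such as the Ndufaf proteins guide or modify these intermediates and are absent from the finished enzyme. Brown fat, heart and other tissues rich in mitochondria express these genes highly.

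The subunit genes were abundant in these libraries of bulk tissue and the 7 Ndufaf genes were not. This was seen in TPM, the transcript abundance unit scaled by gene length that allows genes to be compared. The 34 subunit genes had a median level of 439 TPM in model, 299 TPM in BXD and 331 TPM in control libraries. Among the subunits, the group means in control libraries ran from 85.9 TPM for Ndufs4 to 739.9 TPM for Ndufa1. The 7 Ndufaf genes had medians of 20.7 TPM in model, 18.7 TPM in BXD and 18.5 TPM in control libraries, and in control libraries the lowest of them was Ndufaf6 at 10.2 TPM. None of these 7 reached the level of the lowest subunit gene in any group. Ndufaf8, an assembly factor listed under a placeholder symbol and not among the 44, was more abundant than they were, at 84.4 ± 1.83 TPM in model, 90.7 ± 1.63 TPM in BXD and 100.03 ± 9.28 TPM in control libraries (SD, n = 3 each). Ndufa4 was as abundant as the leading subunits, at 1013 ± 307 TPM in model, 735 ± 57.3 TPM in BXD and 666 ± 100.1 TPM in control libraries (SD, n = 3 each). Ndufa4l2 was far lower, with group means of 11.5 TPM in model, 10.2 TPM in BXD and 19.8 TPM in control libraries.

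**Figure D1:**
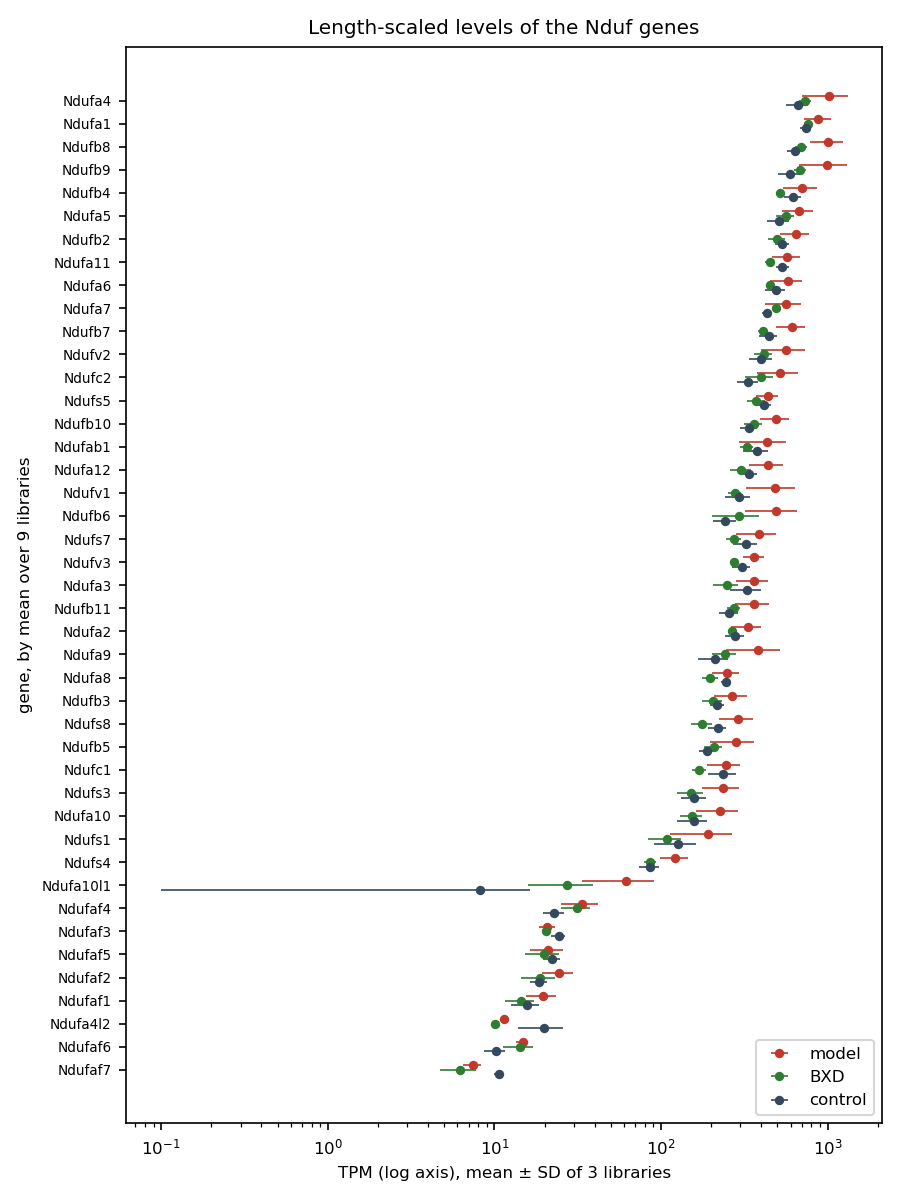
Points are group means and bars the SD of 3 libraries, in TPM on a log axis, for 43 of the 44 Nduf genes, ordered by their mean over the 9 libraries. Ndufa4, Ndufa1 and Ndufb8 stand at the top, and the 7 Ndufaf genes and Ndufa4l2 at the bottom.

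Summed over the 44 genes, Nduf transcripts made up 1.46, 2.20 and 1.49% of all TPM in the model libraries, 1.17, 1.22 and 1.38% in the BXD libraries, and 1.40, 1.34 and 1.10% in the control libraries. The share averaged 1.72 ± 0.419% in model, 1.26 ± 0.113% in BXD and 1.28 ± 0.157% in control libraries (SD, n = 3 each). All 3 model libraries lay above all others, with model replicate 2 far above its own group. On this scale, where each library sums to the same total, BXD and control libraries overlapped.

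The comparison of model with control asks what immersion stress does to these genes. In model libraries 36 of the 44 Nduf genes were higher and none was lower, at an adjusted p under 0.05 in edgeR's quasi-likelihood test over all 14643 genes. Of all genes tested, 21.6% were called higher and 20.6% lower, 42.2% in all. At an unadjusted p under 0.05 the Nduf counts were 40 higher and 0 lower, where 25.8% of all genes were higher and 25.7% lower. The median log2 fold change over the 44 genes was 0.83, a 1.78-fold rise, against −0.01 over all genes tested. In 38 of the 44 every model library lay above every control library, an arrangement seen in 28.9% of all genes. These libraries are bulk tissue, so more cells of a type and more RNA per cell cannot be told apart.

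The rise was not even over the libraries. Expressed as the median over the 44 genes of log2 CPM relative to the control mean, the model libraries stood at 0.63, 1.24 and 0.52, the BXD libraries at 0.12, 0.17 and 0.44, and the control libraries at 0.17, 0.03 and −0.18. Model replicate 2 was the highest of the 9 libraries for 43 of the 44 genes, the exception being Ndufa4l2, and control replicate 3 was the lowest for 34. Without model replicate 2 the median was 0.60 and 29 genes were called higher. Without control replicate 3 the count was 23.

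**Figure D2:**
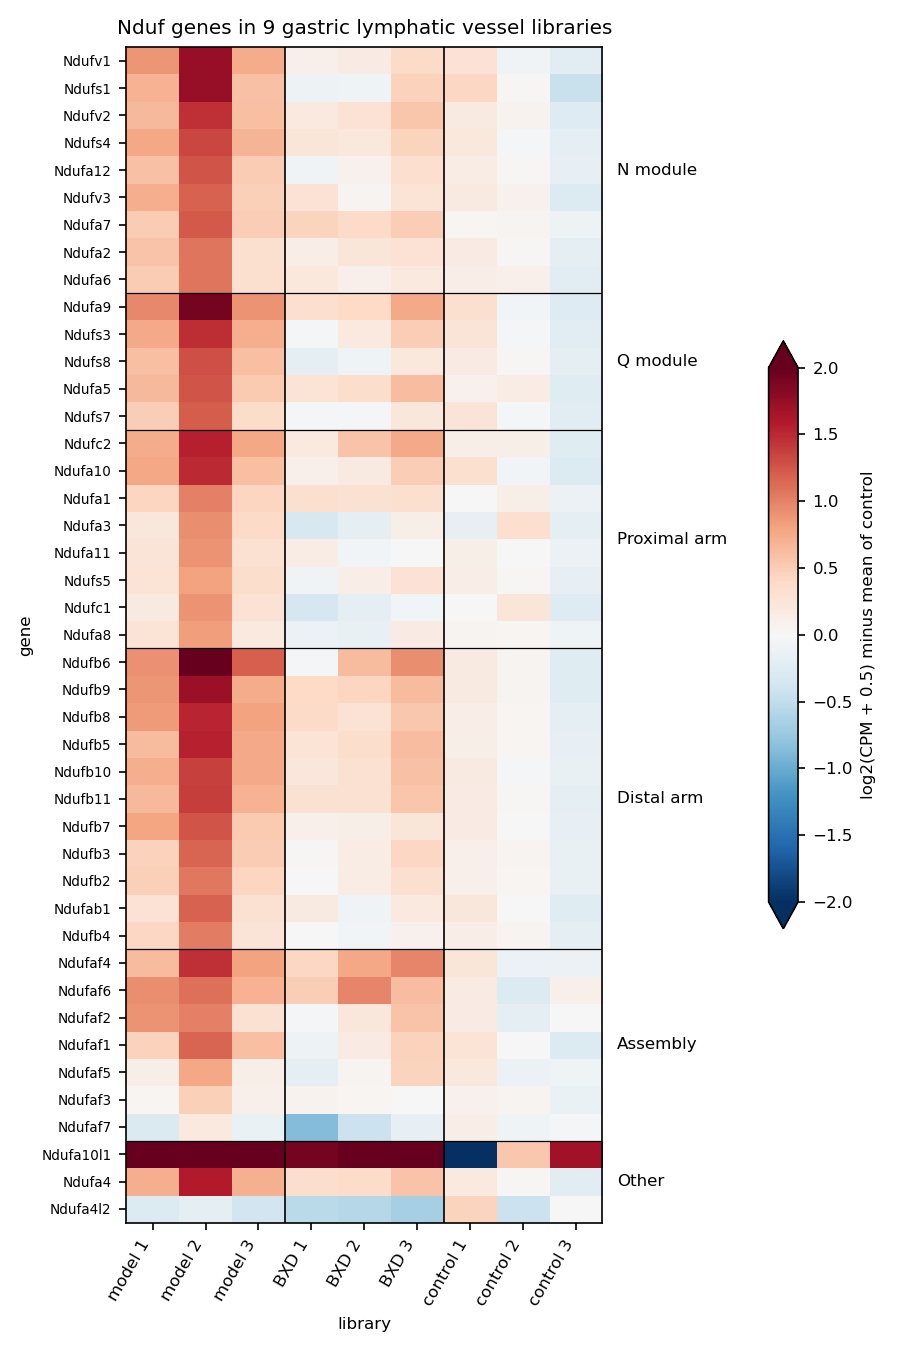
Each cell is a gene's log2(CPM + 0.5) in a library minus its mean over the 3 control libraries, for 43 of the 44 Nduf genes, with genes grouped by module and libraries in columns. Model replicate 2 is the darkest column for nearly every row, while Ndufa4l2 and Ndufaf7 are pale or blue in the model columns.

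All 9 measured N module genes were higher in model libraries, with a median log2 fold change of 0.82. Ndufs4, an accessory subunit that stabilises this module, had the smallest p of the 9 and measured 109, 161 and 103 CPM in model, 75.4, 73.8 and 86.5 CPM in BXD and 73.9, 62.8 and 55.8 CPM in control libraries. The lowest model library exceeded the highest control library, and the log2 fold change was 0.95 ± 0.18 (SE, edgeR adjusted p = 0.00412). Ndufa6, the module's most abundant gene by length-scaled level, had 101, 149 and 88.3 CPM in model, 81.9, 75.8 and 80.8 CPM in BXD and 77.5, 75.4 and 60.3 CPM in control libraries, with a log2 fold change of 0.66 ± 0.19 (SE, edgeR adjusted p = 0.02, or 0.0797 without control replicate 3). The largest p in the module belonged to Ndufs1, which carries several of the iron-sulfur clusters on the path of the electrons. It had 271, 561 and 253 CPM in model, 156, 157 and 229.7 CPM in BXD and 223, 171 and 123 CPM in control libraries. The groups did not overlap between model and control, with control replicate 1 the nearest to the model libraries, and the log2 fold change of 1.07 ± 0.33 (SE) had an adjusted p of 0.0303 in edgeR, which was lost without control replicate 2 (0.0852), control replicate 3 (0.105) or model replicate 2 (0.101).

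All 6 Q module genes were called higher, with a median log2 fold change of 0.94. Ndufa5, an accessory subunit and the most abundant gene of the module, measured 129, 197 and 118 CPM in model, 99.5, 105 and 127 CPM in BXD and 87.6, 91.2 and 69.8 CPM in control libraries. Its log2 fold change was 0.84 ± 0.20 (SE, edgeR adjusted p = 0.0103). Ndufs7, which binds the last iron-sulfur cluster before ubiquinone, had 128, 212 and 117 CPM in model, 89.8, 89.4 and 107 CPM in BXD and 109, 88.6 and 78.4 CPM in control libraries. Control replicate 1 was the nearest to the model libraries, and the log2 fold change of 0.73 ± 0.22 (SE) had an adjusted p of 0.0279 in edgeR, which was lost without control replicate 2, control replicate 3 or model replicate 2.

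Among the subunit modules, the proximal membrane arm had the most genes that missed the threshold. Of its 8 measured genes 5 were called higher, and the median log2 fold change was 0.52. Ndufc2 had the smallest p, with 96.2, 169 and 98.6 CPM in model, 65.7, 85.1 and 97.5 CPM in BXD and 62.3, 62.1 and 48.4 CPM in control libraries and a log2 fold change of 1.07 ± 0.24 (SE, edgeR adjusted p = 0.00762). Ndufa1, a small hydrophobic subunit needed early in assembly of the arm and the most abundant subunit gene in control libraries, gave 90.3, 136 and 90.3 CPM in model, 84.0, 82.8 and 83.8 CPM in BXD and 67.3, 72.7 and 61.5 CPM in control libraries. Its groups were apart by a narrow margin relative to the spread of the model libraries, and the log2 fold change was 0.65 ± 0.16 (SE, edgeR adjusted p = 0.0113). The estimated counts of Ndufa1 were fractional in all 9 libraries, so some of its reads may be shared with another gene and its level is uncertain.

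The 3 proximal arm genes not called were Ndufc1, Ndufa3 and Ndufa8. Ndufc1 had 49.0, 80.6 and 52.7 CPM in model, 34.1, 38.3 and 41.6 CPM in BXD and 43.7, 51.3 and 36.0 CPM in control libraries, and control replicate 2 lay above model replicate 1. Ndufa3 had 35.4, 57.8 and 39.5 CPM in model, 24.0, 26.1 and 32.8 CPM in BXD and 26.8, 38.2 and 26.6 CPM in control libraries, with the same library of control inside the model range. Ndufa8, a subunit with paired cysteine motifs, had 97.2, 144 and 91.7 CPM in model, 74.1, 72.8 and 89.9 CPM in BXD and 83.1, 82.2 and 76.0 CPM in control libraries. Here the groups were apart, and edgeR's adjusted p was 0.0545, against 0.0789 for Ndufa3 and 0.0857 for Ndufc1. All 3 had positive log2 fold changes, of 0.48 for Ndufc1, 0.53 for Ndufa3 and 0.46 for Ndufa8. Each was called when a library was left out, Ndufc1 without model replicate 1 (edgeR, adjusted p = 0.0495), Ndufa3 without control replicate 2 (0.0495) and Ndufa8 without model replicate 1 (0.0493) or model replicate 3 (0.0328).

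In the distal membrane arm 10 of 11 genes were called higher, with a median log2 fold change of 0.95. Ndufb8, an accessory subunit whose protein is often used as a marker of assembled complex I, was the most abundant gene of the arm and had the smallest p of all 44. It measured 265, 419.9 and 256 CPM in model, 190.2, 178 and 212 CPM in BXD and 159.9, 151 and 129 CPM in control libraries, so that every model library was above every control library. Its log2 fold change was 1.10 ± 0.19 (SE, edgeR adjusted p = 0.00278). The gene lies at chr1:264298658-264303712 on the minus strand of Rnor_6.0, with 4 annotated transcripts. Ndufb6 had the largest log2 fold change among the subunits, at 1.45 ± 0.31 (SE, edgeR adjusted p = 0.00687), and was named after its values were seen. The uncalled gene was Ndufab1, the mitochondrial acyl carrier protein, which also serves fatty acid synthesis. It had 111, 205 and 112 CPM in model, 102, 85.4 and 103 CPM in BXD and 106, 90.8 and 76.8 CPM in control libraries, and its log2 fold change of 0.64 ± 0.24 (SE) had an adjusted p of 0.0552 in edgeR, or 0.0352 without model replicate 1 and 0.0399 without model replicate 3.

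The 7 subunits that carry the cofactors and catalysis were compared with the 27 accessory subunits, a grouping made after the values were seen. These 7 Nduf genes, termed core here, were called higher in 7 of 7 cases, with log2 fold changes of 0.73 to 1.18 and a median of 1.02. Core subunits whose symbols do not start with Nduf were not covered. The accessory subunits were called higher in 23 of 27, with log2 fold changes of 0.46 to 1.45 and a median of 0.81. The difference between the sets was not tested.

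The assembly factors were split. Of the 7 Ndufaf genes 4 were called higher (Ndufaf1, Ndufaf2, Ndufaf4 and Ndufaf6) and 3 were not (Ndufaf3, Ndufaf5 and Ndufaf7), and their median log2 fold change was 0.77. Ndufaf4, which acts with Ndufaf3 on the Q module in human cells, had 38.9, 69.4 and 43.8 CPM in model, 33.3, 42.9 and 49.7 CPM in BXD and 29.7, 22.9 and 22.9 CPM in control libraries. All BXD libraries also exceeded all control libraries, and the log2 fold change of model over control was 1.01 ± 0.24 (SE, edgeR adjusted p = 0.0094). Ndufaf6, another factor of Q module assembly, had 9.46, 10.7 and 7.97 CPM in model, 6.85, 9.81 and 7.47 CPM in BXD and 5.32, 3.83 and 5.12 CPM in control libraries. These are low levels, and the groups of model and control were apart, with a log2 fold change of 0.98 ± 0.22 (SE, edgeR adjusted p = 0.00794).

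Ndufaf1, a member of the membrane complex that assembles the proximal pump, had 22.5, 36.8 and 24.8 CPM in model, 15.0, 18.2 and 22.6 CPM in BXD and 19.7, 16.2 and 13.3 CPM in control libraries. Ndufaf2, a factor for late joining of the N module, had 7.88, 8.60 and 5.09 CPM in model, 3.92, 4.79 and 6.19 CPM in BXD and 4.54, 3.51 and 4.07 CPM in control libraries. Their log2 fold changes were 0.77 ± 0.23 (SE) for Ndufaf1 and 0.83 ± 0.26 (SE) for Ndufaf2, with adjusted p of 0.0268 for Ndufaf1 and 0.0324 for Ndufaf2 in edgeR. Both calls were lost when control replicate 2, control replicate 3 or model replicate 2 was left out, and that of Ndufaf2 was also lost without control replicate 1 or model replicate 1.

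For the other Ndufaf genes the model and control libraries overlapped. Ndufaf3 had 17.9, 24.3 and 18.5 CPM in model, 18.2, 17.7 and 17.4 CPM in BXD and 18.4, 17.9 and 15.7 CPM in control libraries, and its log2 fold change was 0.22 ± 0.15 (SE, edgeR adjusted p = 0.244), turning to −0.06 when counts were scaled by library size alone. Ndufaf5, which hydroxylates an arginine of Ndufs7, had 11.9, 19.2 and 12.0 CPM in model, 9.60, 11.4 and 15.2 CPM in BXD and 12.7, 10.1 and 10.3 CPM in control libraries. Of the model libraries, replicate 2 stood above the control range, and the log2 fold change was 0.38 ± 0.24 (SE, edgeR adjusted p = 0.228). Ndufaf7, an arginine methyltransferase that acts early in assembly, had 11.2, 15.8 and 12.5 CPM in model, 7.35, 10.1 and 12.2 CPM in BXD and 15.1, 12.9 and 13.3 CPM in control libraries. Its log2 fold change was −0.07 ± 0.21 (SE, edgeR adjusted p = 0.815), and it turned to 0.04 without model replicate 1. On the TPM scale Ndufaf7 averaged 7.41 ± 0.901 TPM in model and 10.6 ± 0.696 TPM in control libraries (SD, n = 3 each).

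Ndufa4, now counted with complex IV, moved with the subunits. It had 339, 617 and 337 CPM in model, 263, 266 and 306 CPM in BXD and 236, 209 and 175 CPM in control libraries, and the log2 fold change was 1.06 ± 0.23 (SE, edgeR adjusted p = 0.00735). Ndufa4l2, known as a gene induced by low oxygen, was not called. It had 6.48, 6.81 and 5.92 CPM in model, 5.26, 5.18 and 4.83 CPM in BXD and 10.9, 5.71 and 7.85 CPM in control libraries. In CPM the model libraries lay inside the range of the control libraries, with a log2 fold change of −0.35 ± 0.24 (SE, edgeR adjusted p = 0.261). On the TPM scale the model libraries, at 11.2 to 11.9, lay below the control libraries, at 14.4 to 26.1.

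Ndufa10l1 had the largest log2 fold change of the 44 genes, 3.38 ± 0.81 (SE, edgeR adjusted p = 0.0109), but its counts cannot be separated cleanly from those of Ndufa10. It had 37.7, 98.0 and 48.4 CPM in model, 14.3, 33.5 and 23.8 CPM in BXD and 0.355, 5.19 and 12.1 CPM in control libraries. The estimated counts of Ndufa10 and Ndufa10l1 were fractional in all 9 libraries and added up to whole numbers in all 9, so the counter had divided shared reads between the genes. Ndufa10l1 received 11.9, 17.6 and 16.4% of that sum in the model libraries, 7.55, 15.3 and 9.34% in the BXD libraries, and 0.157, 3.22 and 8.20% in the control libraries. Ndufa10 on its own had a log2 fold change of 0.99 ± 0.25 (SE, edgeR adjusted p = 0.0123), which was not called without control replicate 3, and the summed counts gave 1.18 (edgeR, adjusted p = 0.00592). Ndufa10 lies on chromosome 9 and Ndufa10l1 at chr6:62796951-62798384 of Rnor_6.0, and the levels of both are uncertain.

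**Figure D3:**
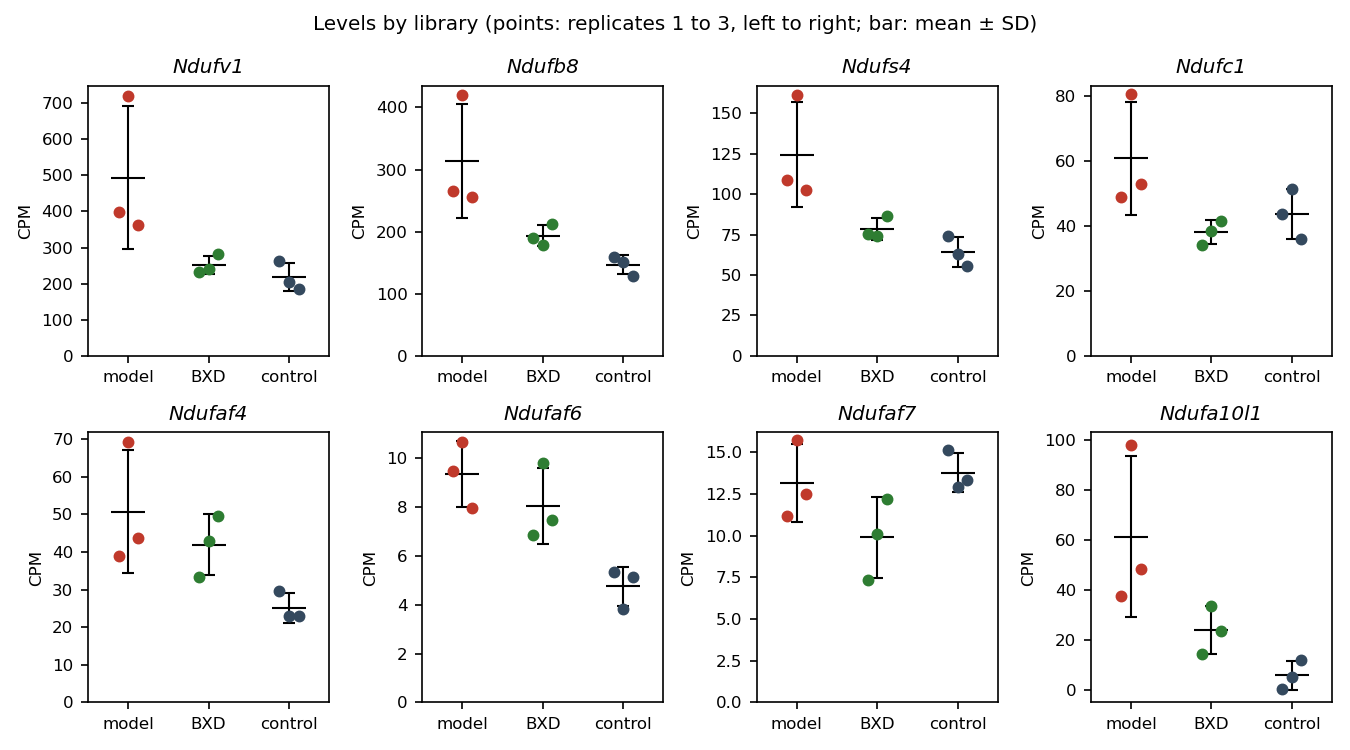
CPM in each of 9 libraries for 8 Nduf genes, with the mean and SD of each group. Ndufv1, Ndufb8 and Ndufs4 are high in the model libraries, Ndufaf4 and Ndufaf6 are lower in the control libraries than in both other groups, and for Ndufc1 and Ndufaf7 the model and control libraries overlap.

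Complex I genes that the table lists under placeholder symbols were matched by gene identifier and are not among the 44. Ndufs6 (log2 fold change 0.78, adjusted p = 0.0119) and Ndufa13 (0.66, adjusted p = 0.00971) were higher in model libraries by edgeR. Ndufaf8, the partner of Ndufaf5, was not called (0.15, adjusted p = 0.38 in edgeR). Ndufb1 was not analysed here.

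Other genes of oxidative phosphorylation moved with complex I. Of 44 tested genes of complexes II to V, 35 were called higher and none lower in model libraries, with a median log2 fold change of 0.93. Of 10 tested assembly factors without the Nduf name 3 were higher and none lower, with a median of 0.40, and this share is to be read against the 21.6% of all genes called higher. These were Acad9, which works with Ndufaf1 (log2 fold change 0.70, adjusted p = 0.00779 in edgeR), Timm21 (1.00, adjusted p = 0.0163) and Tmem70 (0.95, adjusted p = 0.0392). Of 19 regulators of mitochondrial biogenesis 6 were higher and 1, the mitochondrial RNA polymerase Polrmt, was lower (log2 fold change −0.55, adjusted p = 0.0271 in edgeR).

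Among those regulators Ppargc1a, the coactivator that drives mitochondrial biogenesis in brown fat and muscle, had 146, 293 and 136 CPM in model, 71.5, 95.1 and 97.9 CPM in BXD and 27.0, 15.9 and 12.1 CPM in control libraries. The model and control ranges were far apart, with a log2 fold change of 3.39 ± 0.38 (SE, edgeR adjusted p = 0.000523). Tfam, which packages and transcribes mitochondrial DNA, had a log2 fold change of 0.59 ± 0.15 (SE, edgeR adjusted p = 0.0116). The transcription factor genes Esrra (0.49, adjusted p = 0.172 in edgeR) and Nrf1 (−0.12, adjusted p = 0.613) did not pass the test.

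Summed markers of fat cells were higher in model than in control libraries, as most Nduf genes were, but did not follow them in every library. The 9 brown adipocyte markers in the table, of 10 listed, summed to 2812, 7583 and 3469 CPM in model libraries, 1042, 1440 and 1677 CPM in BXD libraries, and 1368, 1326 and 573 CPM in control libraries. The libraries with the most and the least of these markers, model replicate 2 and control replicate 3, were also those with the highest and lowest Nduf median. The list holds Ppargc1a, and its member Elovl3 had no count in 7 of the 9 libraries. Ucp1, the brown fat uncoupling protein, made up most of each sum. It had 1961, 5632 and 2641 CPM in model, 550.1, 939.8 and 1134 CPM in BXD and 862, 945 and 340.2 CPM in control libraries. Of the other members, Cidea, Dio2, Cox8b and Cpt1b averaged higher TPM in model than in control libraries. Prdm16 averaged 2.76 TPM in model and 4.18 TPM in control libraries, and Cox7a1 averaged 2.21 and 2.11 TPM. Markers of fat cells in general summed to 15205 to 26781 CPM in model, 11347 to 15350 CPM in BXD and 5980 to 6493 CPM in control libraries. BXD libraries thus lay wholly above control libraries, while the median Nduf log2 fold change of BXD over control was 0.21. In both fat lists model replicate 3 was above replicate 1, with Nduf medians of 0.52 for replicate 3 and 0.63 for replicate 1. Smooth muscle markers were lowest in the model libraries, with 1892 to 3450 CPM in model, 5733 to 8912 CPM in BXD and 4080 to 6336 CPM in control libraries. Markers of macrophages, 6 genes, summed to 530 to 572 CPM in model, 387 to 468 CPM in BXD and 384 to 476 CPM in control libraries. The model libraries lay above all others, but replicate 2, with the highest Nduf median, had the lowest model sum. In TPM, Adgre1, Csf1r and C1qa averaged lower in model than in control libraries, and Cd68, Cd163 and Mrc1 averaged higher. In CPM, the scale of the sums, Csf1r averaged 137 in model and 117 in control libraries, and C1qa 122 and 109. Adgre1 was level in CPM, at 24.1 and 24.4. For lymphatic endothelium, blood endothelium and lymphocytes the sums of model and control libraries overlapped, but single members went different ways. Prox1 averaged 3.93 TPM in model and 18.7 TPM in control libraries, while Lyve1 averaged 104 and 51.5 TPM. In TPM every blood endothelial marker averaged lower in model than in control libraries, among them Erg (17.2 and 56.4) and Aplnr (2.14 and 27.9). That direction depended on the scale, since in CPM Cdh5, for example, averaged higher, at 289 in model and 262 in control libraries. Striated muscle markers stood apart in BXD replicates 1 and 3, at 7957 and 4373 CPM, against at most 490 CPM in any other library. No marker list was used as a covariate, and the part of these cells in the Nduf values was not tested.

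**Figure D4:**
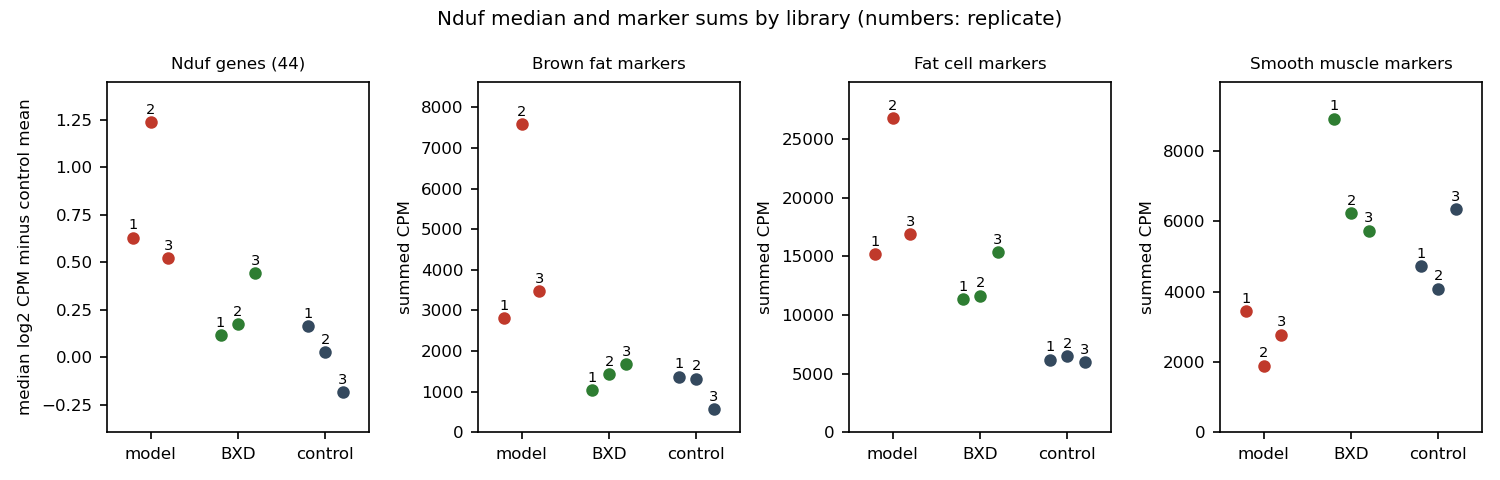
The median log2 CPM of the 44 Nduf genes relative to the control mean, and the summed CPM of 3 marker lists, in each library, with the replicate number beside each point. Model replicate 2 has the highest Nduf median, the highest sums of brown fat and fat cell markers and the lowest sum of smooth muscle markers.

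Since 36 Nduf genes were called in the same direction, their promoters were searched for sites of factors known to control nuclear genes of mitochondria. Promoters of 300 bases, from 250 before to 50 after the annotated start, were taken from RefSeq on the GRCr8 build for 39 of the 44 genes. Among the genes without an entry were Ndufb9, Ndufaf6, Ndufa8 and Ndufa10l1. The core of the YY1 site, AAGATGGCG on either strand, was present in 6 of 39 (15.4%), against 2.86% of 14228 promoters of genes in the table. The NRF1 core GCGCATGC was present in 4 of 39 (10.3%, against 4.05% of all), the ETS site CCGGAAG in 7 (17.9%, against 14.1%), and the ERR site TCAAGGTCA in none (against 0.309%). Any of the 4 motifs was found in 14 (35.9%, against 19.6%). These matches describe the letters in the windows and do not show binding.

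All 6 YY1 matches read with the gene and began at positions 5 to 27, counted from 1 at the annotated start, while over all promoters 141 of 414 matches read with the gene and began at these positions. The stretches of 30 bases below are shown because they let this shared placement be seen, with the match in capitals, 5′ to 3′ on the strand of the gene, all on the minus strand of GRCr8. The motif itself holds ATG, the letters of a start codon. Whether these matches cover the start of the coding sequence was not examined, so their placement cannot be read as a trait of YY1 sites.
Ndufa2 (chr18:28631839-28631868): tttgctagcaAAGATGGCGgccgcaagccg
Ndufa6 (chr7:115750283-115750312): cttccttagcAAGATGGCGgccgcggccag
Ndufa9 (chr4:161374141-161374170): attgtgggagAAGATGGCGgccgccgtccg
Ndufb8 (chr1:253362896-253362925): ggagaaggtgAAGATGGCGgcgtcccgggc
Ndufs4 (chr2:47794891-47794920): tgcccacaggAAGATGGCGgcggtctcaat
Ndufs7 (chr7:10110475-10110504): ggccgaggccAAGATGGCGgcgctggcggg

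The NRF1 matches lay before the start. Since the motif is nearly its own reverse complement, matches on opposite strands overlap in Ndufa11 (4 matches), Ndufaf4 and Ndufaf5. Capitals mark all matched bases, the genes of Ndufa11, Ndufaf4 and Ndufaf5 being on the plus strand and that of Ndufa6 on the minus strand. Ndufa6 alone of the 39 held both motifs, and Ndufaf4 and Ndufaf5 are a called and an uncalled assembly factor in the comparison of model with control.
Ndufa11 (chr9:1637510-1637539): gcgctgtGCGCATGCGCATGCGCacaggcc
Ndufa6 (chr7:115750403-115750432): tccgcggtagaGCATGCGCatggcagagcc
Ndufaf4 (chr5:43401627-43401656): gcagtagtccGCGCATGCGCccctgtggaa
Ndufaf5 (chr3:147961587-147961616): agtccctttgGCGCATGCGCacaatagaaa

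The comparison of BXD with model asks whether the decoction changed what stress had done. It shares the model libraries with the comparison above. No Nduf gene was called in either direction by edgeR at an adjusted p under 0.05, in a comparison where 0.0615% of all genes were called, 0.0546% higher and 0.00683% lower. All 44 log2 fold changes were negative, with a median of −0.60 against −0.01 over all genes tested and a range from −1.36 to −0.19. At an unadjusted p under 0.05, 33 of the 44 were lower and 0 higher, where 9.85% of all genes were lower. In 32 of the 44 every BXD library lay below every model library, against 11.8% of all genes. Limma-voom also called 0, while DESeq2 called 12 Nduf genes lower, where it called 2.79% of all genes lower. Among these were Ndufs1, Ndufs4, Ndufv1, Ndufv3 and Ndufa12 of the N module, Ndufs3 and Ndufs8 of the Q module, Ndufc1 of the proximal arm, and Ndufb7, Ndufb8 and Ndufb10 of the distal arm. Without model replicate 2 the median was −0.31.

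The smallest p belonged to Ndufs8, a core Q module subunit with iron-sulfur clusters, which had 56.7, 61.4 and 75.3 CPM in BXD, 99.5, 159 and 98.9 CPM in model and 73.5, 66.2 and 57.2 CPM in control libraries. The BXD libraries were all below the model libraries and overlapped the control libraries, with a log2 fold change of −0.89 ± 0.20 (SE, edgeR adjusted p = 0.099). Ndufv1, the flavin-binding subunit where NADH is oxidised, had 233, 242 and 281 CPM in BXD, 398, 720.2 and 363 CPM in model and 263, 205 and 187 CPM in control libraries. Its log2 fold change was −0.97 ± 0.25 (SE, edgeR adjusted p = 0.115). Ndufb7 of the distal arm had 74.4, 75.8 and 82.8 CPM in BXD, 121, 167 and 100.4 CPM in model and 78.1, 70.0 and 61.8 CPM in control libraries, and a log2 fold change of −0.74 ± 0.18 (SE, edgeR adjusted p = 0.105). Ndufb8, with 190.2, 178 and 212 CPM in BXD, 265, 419.9 and 256 CPM in model and 159.9, 151 and 129 CPM in control libraries, had a log2 fold change of −0.70 ± 0.19 (SE, edgeR adjusted p = 0.124). DESeq2 called all 4 of these genes lower, and in each the BXD libraries stood wholly below the model libraries.

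By module, every measured gene had a negative log2 fold change in BXD against model. The medians were −0.61 for the N module, −0.76 for the Q module, −0.52 for the proximal arm and −0.60 for the distal arm. The 7 core subunits had a median of −0.79 and the 27 accessory subunits −0.59. BXD libraries lay wholly below the model libraries in 29 of the 34 subunits and in none of the 7 assembly factors, against 11.8% of all genes. With only 7 assembly factors, none in this arrangement is not far from that share. The median of the 7 was −0.27. The difference between these sets was not tested. Genes of complexes II to V had a median of −0.60, with 40 of 44 negative and none called.

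The comparison of BXD with control shares libraries with both of the above. By edgeR, 2 members passed as higher and 0 as lower, while 30.3% of all genes were called, 16.1% higher and 14.3% lower. The median log2 fold change was 0.21 against −0.02 over all genes, 38 of the 44 were positive, and 15 had every BXD library above every control library, against 23.8% of all genes. At an unadjusted p under 0.05 the counts were 4 higher and 2 lower, where 21.9% of all genes were higher and 20.9% lower. Both called genes were assembly factors of the Q module. Ndufaf6 had a log2 fold change of 0.76 ± 0.22 (SE, edgeR adjusted p = 0.0286) and Ndufaf4 one of 0.74 ± 0.24 (SE, edgeR adjusted p = 0.0415). Ndufaf4 lies at chr5:39251370-39258065 on the plus strand and Ndufaf6 at chr5:24297169-24320804 on the minus strand of Rnor_6.0. For both genes the BXD libraries stood above the control libraries and overlapped the model libraries. Both calls were lost without control replicate 1, 2 or 3 or BXD replicate 2, and that of Ndufaf4 was also lost without BXD replicate 3.

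None of the 34 subunit genes was called in BXD against control, with log2 fold changes from −0.20 for Ndufc1 to 0.56 for Ndufb6. The 2 lowest values of the 44 were those of Ndufa4l2, −0.68 ± 0.24 (SE, edgeR adjusted p = 0.0582), and Ndufaf7, −0.48 ± 0.21 (SE, edgeR adjusted p = 0.113). Ndufa4l2 was called lower without control replicate 2 (edgeR, adjusted p = 0.0288) and under upper quartile scaling (0.0293). Both genes were called lower when counts were scaled by library size alone, at an edgeR adjusted p of 0.0169 for Ndufa4l2 and 0.0345 for Ndufaf7, and in all 3 fits of FPKM values with limma. In both genes the BXD libraries were wholly below the control libraries, against 24.8% of all genes. Ndufa10l1 had a log2 fold change of 2.02 ± 0.79 (SE, edgeR adjusted p = 0.0824), with the uncertainty given above, and was called without control replicate 3 (adjusted p = 0.0406). Ppargc1a remained above control in BXD libraries, with a log2 fold change of 2.27 ± 0.37 (SE, edgeR adjusted p = 0.00283).

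**Figure D5:**
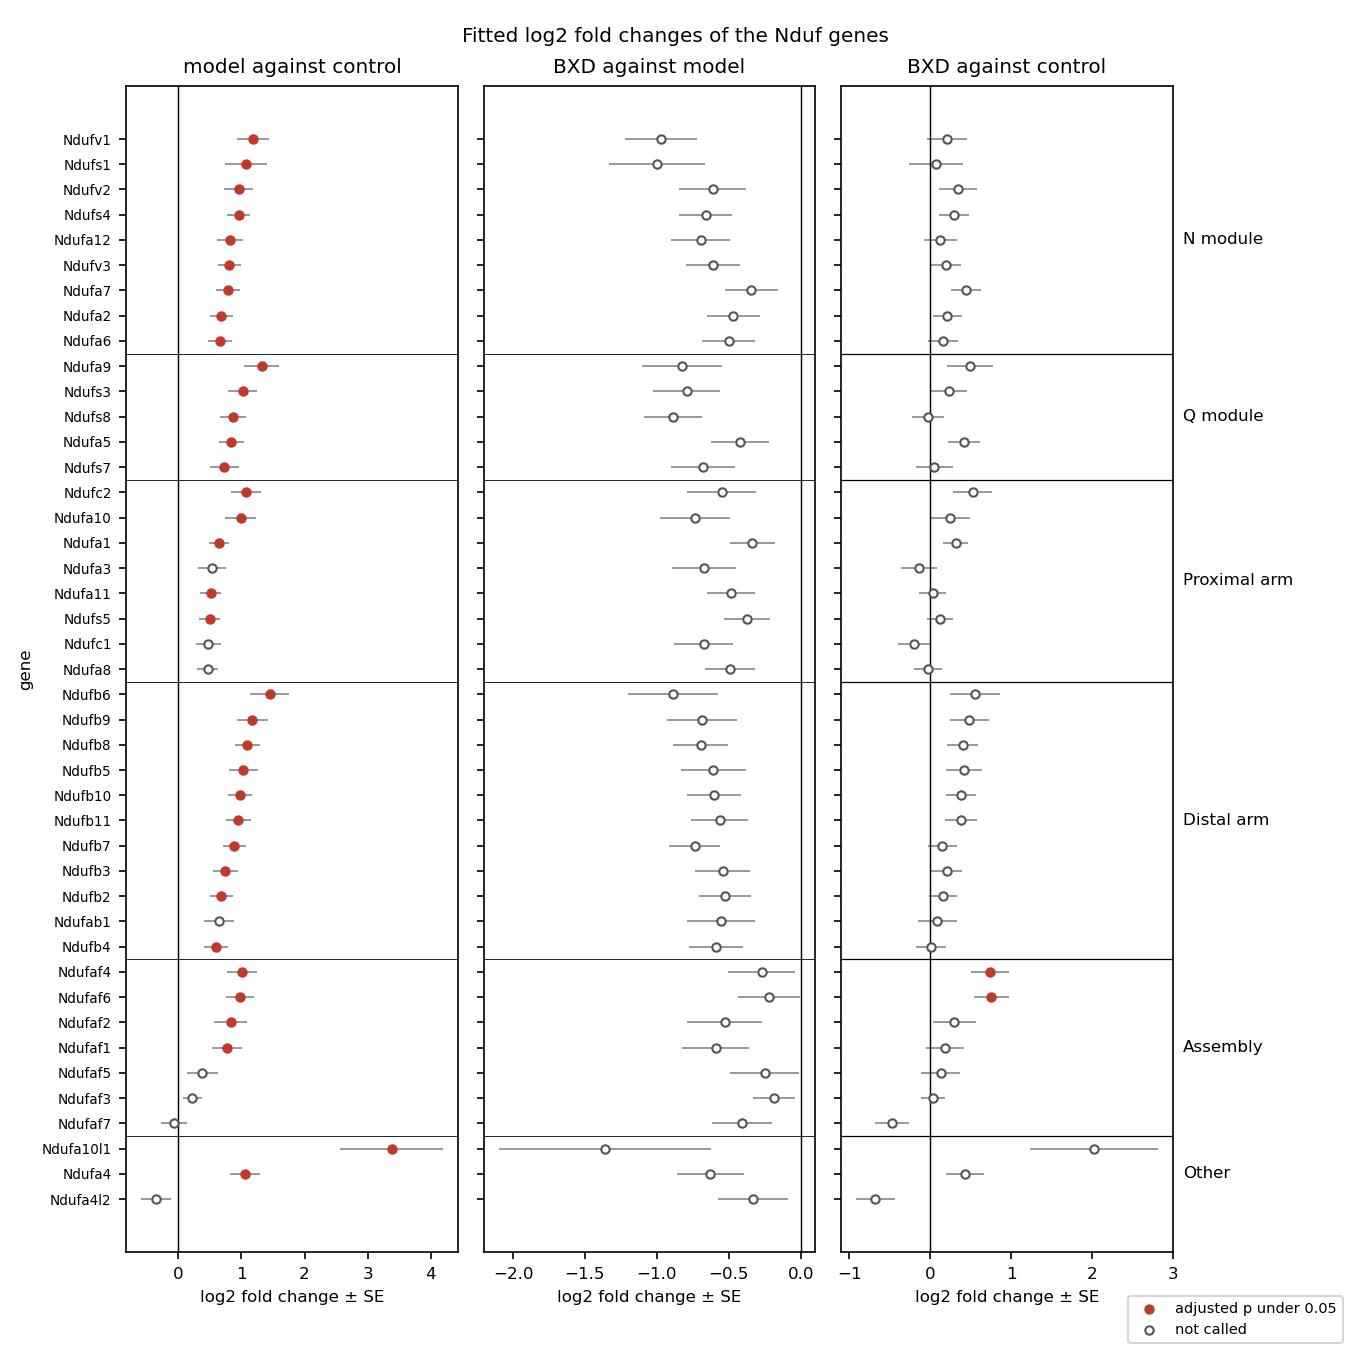
Log2 fold changes with standard errors from edgeR for 43 of the 44 Nduf genes in 3 comparisons, with genes in rows grouped by module and filled points marking an adjusted p under 0.05. The points lie right of 0 for all but Ndufaf7 and Ndufa4l2 in model against control, left of 0 for every gene drawn in BXD against model, and near 0 for most in BXD against control.

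Placing the groups in order, the mean CPM of BXD libraries lay between those of model and control for 38 of the 44 genes and below both for the other 6. In 29 genes all 3 model libraries exceeded all 6 others. The shares of all genes with these arrangements were not computed, so these counts have no background to be read against. The authors' deposited table, made with DESeq2, has a q under 0.05 for 37 Nduf genes higher in model against control, for 4 lower in BXD against model, and for 14 higher in BXD against control. The share of all genes under that q in the authors' table was not counted here.

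The size of these values depended on how the libraries were scaled to each other. The median of all genes tested in model against control was −0.01 under TMM scaling, −0.14 under upper quartile scaling and −0.28 when only library size was used. With that last scale 24 Nduf genes were called higher and 0 lower, where 11.1% of all genes were called higher and 33.5% lower. The Nduf median stood 0.85 above the all-gene median under TMM scaling, and 0.84 with the upper quartile or the plain library size as the scale. In BXD against control the Nduf median was 0.21 under TMM scaling and 0.004 with library size alone, 0.23 above the all-gene median in both cases, and 23 of the 44 genes were positive with library size alone against 38 under TMM scaling.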

How the data were processed

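RNA from 9 libraries, 3 per group, was enriched for poly(A) and sequenced on Illumina, as the labels' protocols say. Rnor_6.0, HISAT2 2.2.4 and Bowtie2 2.2.5 are listed in the submitters' processing notes. The tool that counted reads and the strand setting are not given in the sources used here. Per the file headers, the authors deposited estimated counts, FPKM and TPM values per gene and library, and a table of DESeq2 log2 fold changes with p-values and q-values for each pair of groups. Of the estimated count values, 88.8% were whole to within 1e-09. Another 45 columns of per-sample values were not used.

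Estimated counts were rounded, filtered with filterByExpr, scaled by the trimmed mean of M-values (TMM) and tested with edgeR 4.0.16 (quasi-likelihood, R 4.3.3) in a fit over all 3 groups with 6 residual degrees of freedom. P-values were adjusted by Benjamini-Hochberg over 14643 genes, with a threshold of 0.05. CPM values use the same scaling, and 3 counts correspond to 0.195 to 0.269 CPM, a floor that covers counting error only. Alternatives used other scalings and filters, DESeq2 1.42.0, limma 3.58.1 (voom, and limma-trend on log2 of the deposited FPKM plus a pseudocount of 1 or 0.1), a replicate block and the omission of each library. The test was checked on simulated data.

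The members and gene lists were chosen with earlier results of these data known. Named with values in every library were, per module, the genes with the highest mean FPKM, the smallest p and the largest p, all Ndufaf genes, Ndufa4, Ndufa4l2 and Ndufa10l1, the genes not called in model against control, and the 4 with the smallest p in each comparison with BXD. The values of 1 member are not reported here. Promoter sequences came from RefSeq on GRCr8, so their coordinates differ from those of Rnor_6.0.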

Additional observations from a re-analysis of the deposited data

How the results depend on the processing

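The alternatives were followed gene by gene for 42 log2 fold changes over the 3 comparisons, not for all 44 genes in each. Of the resulting values 598 kept their direction and their side of the threshold, 62 lost a call, 25 gained one and 20 changed sign. Over all 44 genes, the number with a positive log2 fold change in BXD against control was 38, with 32 for the upper quartile, 23 for the plain library size and in each FPKM fit, and 32 to 39 when a library was left out. Of the counts and medians, 135 were labelled as held and 27 as moved, under wide limits. A count could differ by a set ratio and still be labelled as held. For a median the limit was the SD among the library medians of the groups compared. With library size alone in model against control, 24 genes called higher against 36 were labelled as held. So was a median of 0.55 against 0.83. In model against control the number of genes called higher was 36 in the main fit. It was 30 under upper quartile scaling, 24 with library size alone, 25 for FPKM at either pseudocount and 22 for unfiltered FPKM. DESeq2 gave 38, a fit of the 6 libraries compared 34, the replicate block 30, and leaving a library out 23 to 38. The number called lower was 0, with 1 (Ndufa4l2) for FPKM at a pseudocount of 1 or 0.1. In BXD against model the number called lower was 0, with 12 by DESeq2.

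In BXD against control the number called higher was 2, with 1 under upper quartile scaling, 0 with library size alone, 1 for FPKM at either pseudocount, 0 for unfiltered FPKM, 8 in a fit of the 6 libraries compared, and 0 to 2 when a library was left out. The number called lower was 0, with 1 (Ndufa4l2) for upper quartile scaling, 2 (Ndufa4l2 and Ndufaf7) for library size alone and for each FPKM fit, and 0 to 1 when a library was left out. The median was 0.21, with 0.0039 for library size alone, 0.0154 for FPKM at a pseudocount of 1 with or without the filter and 0.0155 at 0.1. It was 0.091 under upper quartile scaling and 0.12 to 0.32 when a library was left out.

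Ndufaf3 changed sign in model against control with library size alone (−0.056) and for FPKM (−0.049 at a pseudocount of 1 with or without the filter, −0.052 at 0.1). Ndufaf7 did so when a library was left out, with values from −0.21 to 0.040, positive without model replicate 1. In BXD against control Ndufaf3 gave −0.086 for the upper quartile, −0.18 for the plain library size, −0.16 and −0.17 for FPKM at a pseudocount of 1 and 0.1, and −0.035 to 0.076 when a library was left out, negative without control replicate 3. Ndufaf1 gave −0.021 with library size alone, and −0.029 and −0.032 for FPKM at a pseudocount of 1 and 0.1. Ndufaf5 gave −0.073 with library size alone, −0.086 and −0.093 for FPKM at these pseudocounts, and −0.070 to 0.27 when a library was left out, negative without BXD replicate 3. None of these genes was called in its comparison, and the cause of the changes was not tested.

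With the replicate number as a block, 30 genes were called higher in model against control, 0 in either direction in BXD against model and 0 higher in BXD against control, where Ndufaf4 and Ndufaf6 lost their calls. The labels give the number no meaning, and libraries with the same number did not deviate together, with correlations of 0.05 to 0.09 for model and control, −0.43 to −0.11 for BXD and model, and −0.24 to 0.06 for BXD and control. Groups of 3 libraries, low counts for the Ndufaf genes and reads shared between Ndufa10 and Ndufa10l1 limit these values. With Ndufa10l1 counts added to Ndufa10, an alternative chosen after seeing the data, the log2 fold change of Ndufa10 kept its direction in all 3 comparisons.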
